A study of Mus musculus with 8 samples.

Results

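The 10 genes described here encode the proteins that build very low density lipoprotein (VLDL) in the liver and the small apolipoproteins that it carries. They are Apob, Mttp, Tm6sf2, Apoc2, Apoc3, Apoa5, Apoa4, Apoe, Apoc1 and Apoc4. They were chosen by gene symbol, and all 10 were found among the 17810 genes of the deposited count table. RNA-Seq had been run on liver from WT and HKO mice, all male littermates, with 4 libraries of each genotype. From an age of 8 weeks they ate CD-HFD, a diet rich in fat and without added choline, for 3 months, and they were 5 months old when the tissue was taken. HKO mice carry miR-33 alleles flanked by loxP sites, which Cre recombinase under the albumin promoter removes in hepatocytes (genotype AlbCRE in the labels). Whether this Cre also acts in cholangiocytes was not analysed here. Both groups had the same diet and were fasted, and their livers were perfused with PBS and frozen whole. Choline deficiency itself limits the export of VLDL, so every value below comes from livers under that diet, and chow-fed livers were not analysed here. The level of miR-33 was not analysed here, and each genotype below is the one on the label.

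VLDL carries triglyceride from hepatocytes to other tissues. APOB is the large structural protein of the particle, and MTTP loads lipid onto it in the endoplasmic reticulum while it is still being made. TM6SF2 acts on the lipid content of the particle after that first step. The exchangeable apolipoproteins then set the fate of the particle in blood, since APOC2 is the cofactor that lipoprotein lipase needs, APOC3 restrains lipolysis, APOA5 promotes it, and APOE is the ligand through which remnants return to the liver. miR-33 is known for its repression of genes of cholesterol efflux and fatty acid oxidation.

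The mature miR-33 that HKO hepatocytes lack is shown because its seed decides which messages it can pair with. In the RefSeq entry it is read from chr15:82198127-82198147 on the plus strand of GRCm38.p6, within the Srebf2 gene, and the capitals mark the seed, bases 2 to 8.
mmu-miR-33-5p: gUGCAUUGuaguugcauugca
The 3′UTR words that pair with this seed, CAATGCA and AATGCAA, were counted in the longest 3′UTR annotated for a gene. None of the 10 genes held either word, with 3′UTRs between 64 bases for Apoc4 and 1201 bases for Mttp. Of all 11536 tested genes with a 3′UTR of at least 50 bases, 16.2% held a match. That share was not matched for length, and a short 3′UTR has less room for a match. It therefore does not tell how many matches to expect in these 10 genes. The absence of a match says only that these letters are not in these 3′UTRs.

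Of the 10 genes, 7 lie in 2 clusters. On chromosome 7, Apoc2 (chr7:19671579-19677941), Apoc4 (chr7:19678084-19681460), Apoc1 (chr7:19689480-19692659) and Apoe (chr7:19696244-19699188) stand within 27.61 kb, all on the minus strand of GRCm38. On chromosome 9, Apoc3 (chr9:46233050-46235636, minus strand), Apoa4 (chr9:46240844-46243458, plus strand) and Apoa5 (chr9:46268608-46271921, plus strand) stand within 38.872 kb. Apob (chr12:7977677-8016839, plus strand), Mttp (chr3:138089855-138143418, minus strand) and Tm6sf2 (chr8:70072924-70080066, plus strand) stand alone. The promoter of Apoa4, the stretch before Apoc2 and the promoter of Apoc4 are printed because Apoa4 and Apoc2 differed between the genotypes and Apoc4, the nearest neighbour of Apoc2, was not called different. The promoters run over 300 bases around the RefSeq start (GRCm38.p6), the last 50 of them transcribed, at chr9:46240594-46240893 on the plus strand for Apoa4 and chr7:19681411-19681710 on the minus strand for Apoc4. The stretch before Apoc2 is the 142 bases between the end of Apoc4 and the start of Apoc2, chr7:19677942-19678083 on the minus strand. Capitals mark the words searched for on both strands.
Apoa4 promoter: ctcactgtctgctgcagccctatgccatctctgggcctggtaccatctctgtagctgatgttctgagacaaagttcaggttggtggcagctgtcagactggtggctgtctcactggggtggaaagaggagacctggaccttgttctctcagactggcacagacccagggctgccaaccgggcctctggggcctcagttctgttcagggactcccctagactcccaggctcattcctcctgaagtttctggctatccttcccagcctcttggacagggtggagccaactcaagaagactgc
Apoc4 end to Apoc2 start: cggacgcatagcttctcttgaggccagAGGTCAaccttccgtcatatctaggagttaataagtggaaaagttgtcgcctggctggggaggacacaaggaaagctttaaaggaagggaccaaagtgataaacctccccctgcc
Apoc4 promoter: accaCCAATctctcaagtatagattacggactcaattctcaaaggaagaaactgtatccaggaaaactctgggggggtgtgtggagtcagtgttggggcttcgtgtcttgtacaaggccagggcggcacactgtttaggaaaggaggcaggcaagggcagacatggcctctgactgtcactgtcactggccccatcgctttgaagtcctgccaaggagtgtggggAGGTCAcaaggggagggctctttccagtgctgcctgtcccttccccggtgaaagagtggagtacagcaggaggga
The words searched were AGGTCA, a hexamer that many nuclear receptors bind, CAAAGTCCA, a word that HNF4A binds, TGACGT, a cyclic AMP response element core, CACGTG, an E-box, TATAAA, and CCAAT. The Apoa4 promoter held none of the 6 words in exact form, and inexact forms were not searched. It holds caaagttca, which is CAAAGTCCA with a T in place of a C. AGGTCA stood 115 bases before the start of Apoc2, another copy stood 42 bases after it, and one stood 25 bases before the start of Apoc4. CCAAT stood 246 bases before the start of Apoc4. AGGTCA was present in 16.3% of the 32851 RefSeq promoters of the same length, CCAAT in 37.4% and TATAAA in 13.6%. TGACGT was present in 7.51%, CACGTG in 7.15% and CAAAGTCCA in 0.475%. A match describes the letters of the window and is no evidence that a factor binds there.

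The authors deposited, for each gene and liver, the number of reads that an expectation-maximization method assigned to it. WT libraries held 12174339 to 18319736 counts and HKO libraries 12509201 to 18735785, so that 3 counts correspond to between 0.149 and 0.255 CPM (the share of a library's counts, scaled between libraries by TMM). All 10 genes were above that floor, which covers counting error only, and Tm6sf2 had the fewest counts, between 69 and 235 per liver. Together the 10 genes held 2.80% to 3.20% of a WT library and 2.39% to 2.70% of an HKO library. The library of HKO replicate 3 stood apart from the other HKO libraries, with a chi-square distance per gene of 114 to 128 from them, while all other pairs within a genotype lay between 19.6 and 43.8. The last number in the column names ran from 55 to 58 in HKO livers and from 59 to 62 in WT livers. The labels do not say what it stands for, and whatever it stands for cannot be told apart from genotype. The 4 WT libraries have different titles, and the column name of each begins with the number in its title. Their descriptions all begin with the same number, which is the title of WT replicate 1. The descriptions thus conflict with the titles and column names on whether each library comes from its own mouse. The distance per gene lay between 19.6 and 43.8 for pairs of WT libraries and between 21.2 and 33.8 for pairs among HKO replicates 1, 2 and 4. Whether any WT libraries share a mouse was not tested. P-values measure the spread between these libraries, which may be technical in part if WT libraries share a mouse.

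Of the 10 genes, Apoa4 and Apoc2 were lower in HKO livers and the other 8 were not called. All 10 passed the expression filter, and they were tested by the quasi-likelihood method of edgeR, with p-values adjusted over the 12395 genes tested and a threshold of 0.05. It called 5.03% of all genes tested, namely 3.37% lower and 1.66% higher in HKO livers, so that 33.0% of its calls were higher. With scaling by total count alone, 119 genes were higher and 621 lower, and 16.1% of the calls were higher. DESeq2 called 8.2% of the genes it tested, and the same 2 of the 10. The genotypes did not overlap for 2 of the 10 genes, and for 12.5% of all genes tested. The fitted log2 fold change was below 0 for 7 of the 10 genes and above 0 for 3. Their median log2 fold change was -0.12, against 0.01 over all genes tested. In whole liver, a lower level from fewer cells that express a gene and one from less RNA per cell cannot be told apart.

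**Figure D1:**
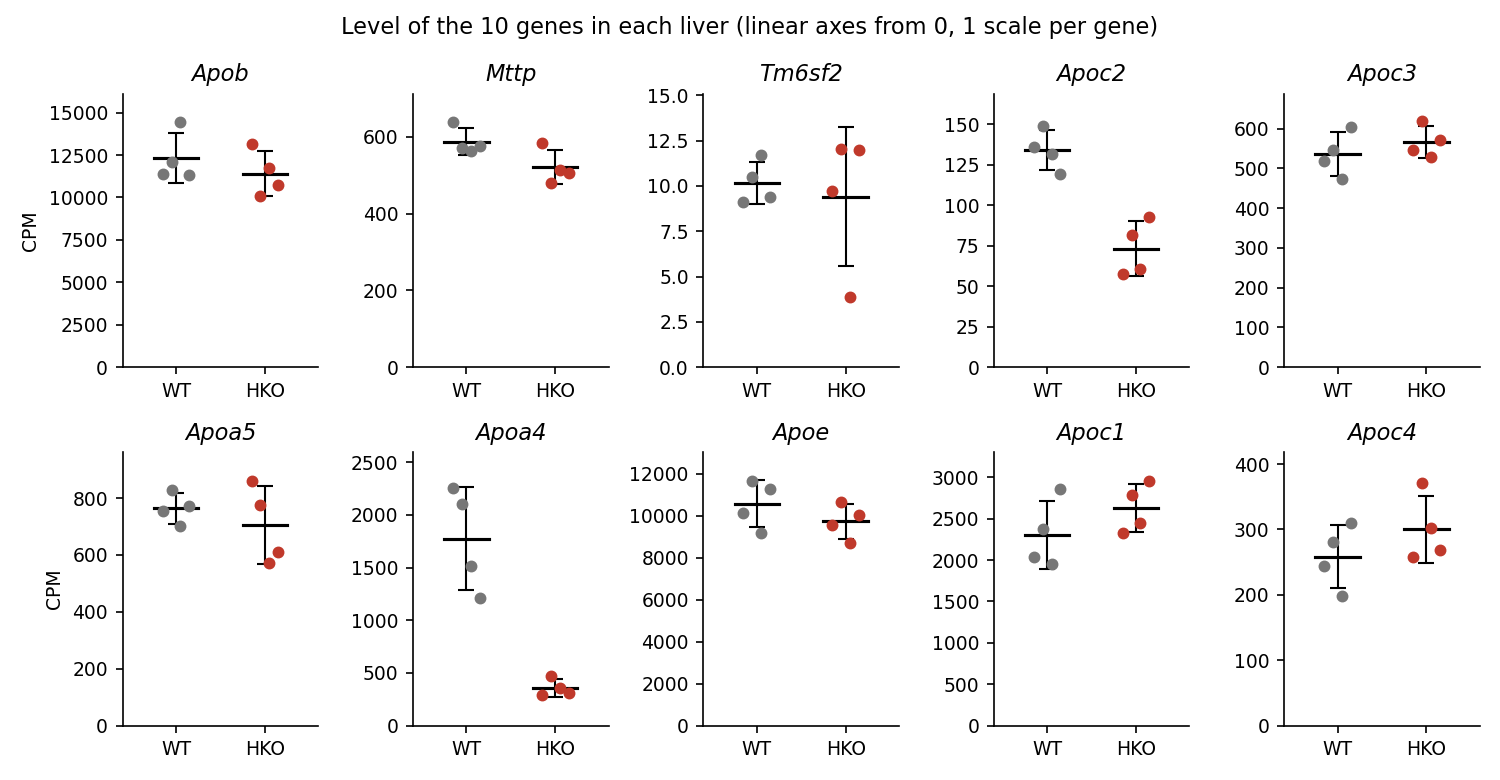
CPM of each of the 10 genes in the 4 WT livers (grey points) and the 4 HKO livers (red points), on a linear axis from 0 with 1 scale per gene, where the line is the mean and the bar the SD. The HKO points lie wholly below the WT points for Apoa4 and Apoc2 and overlap them for the other 8 genes.

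Apoa4 encodes apolipoprotein A-IV, which is carried on VLDL, chylomicrons and HDL and whose hepatic message is known to follow the lipid content of the liver. In WT replicates 1 to 4 its level was 2250 CPM, 2106 CPM, 1519 CPM and 1212 CPM. In HKO replicates 1 to 4 it was 289 CPM, 475 CPM, 357 CPM and 307 CPM. The lowest WT liver was therefore above the highest HKO liver, and the WT livers were spread more widely than the HKO livers on the CPM scale. The means were 1771.5 ± 489 CPM in WT livers and 357 ± 83.7 CPM in HKO livers (SD, n = 4 each), a level 4.97-fold lower in HKO livers. The fit gave a log2 fold change of -2.31 ± 0.23 (SE), with a 95% interval from -2.84 to -1.78 and an adjusted p of 0.00154 by edgeR's test. Leaving out each liver in turn left Apoa4 called in 8 of 8 fits, with log2 fold changes from -2.48 to -2.17. Without HKO replicate 3 the log2 fold change was -2.31 (edgeR's adjusted p = 0.0071). Relative to their means the Apoa4 levels of both genotypes had a wide spread, with coefficients of variation of 27.6% in WT and 23.5% in HKO livers.

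Apoa4 lies between Apoc3 and Apoa5, 5.207 kb from the former and 25.149 kb from the latter, and neither neighbour was called. Apoc3, the inhibitor of lipoprotein lipase activity and of remnant uptake, was at 519 CPM, 546 CPM, 473 CPM and 604 CPM in WT replicates 1 to 4. In HKO replicates 1 to 4 it was at 546 CPM, 618 CPM, 528 CPM and 572 CPM. The 2 groups overlapped, with a log2 fold change of 0.08 ± 0.09 (SE), a 95% interval from -0.13 to 0.29 and an adjusted p of 0.701 by edgeR's test. Apoa5, which promotes lipolysis of triglyceride-rich particles, was at 753 CPM, 830 CPM, 700.5 CPM and 772 CPM in WT replicates 1 to 4. In HKO replicates 1 to 4 it was at 860 CPM, 777 CPM, 571 CPM and 612 CPM. HKO replicates 3 and 4 were below every WT liver and HKO replicate 1 was above every WT liver. The log2 fold change of Apoa5 was -0.12 ± 0.13 (SE), with a 95% interval from -0.40 to 0.16 and an adjusted p of 0.682 by edgeR's test.

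The same contrast appears as a ratio within each liver, where scaling between libraries plays no part. The ratio of Apoa4 counts to Apoc3 counts was 4.34, 3.86, 3.21 and 2.01 in WT replicates 1 to 4. It was 0.528, 0.767, 0.676 and 0.537 in HKO replicates 1 to 4. Apoa4 thus had more counts than Apoc3 in each WT liver and fewer in each HKO liver. Against Apoa5, the ratio lay between 1.57 and 2.99 in WT livers and between 0.336 and 0.625 in HKO livers. These ratios rest on the same Apoa4 counts as the test, so they add no independent evidence, and they are not corrected for transcript length. Transcripts on the opposite strand are annotated over Apoa4 (Gm47528 and Gm10680), Apoa5 (Gm47544) and Mttp (Gm43691), and whether the counting used strand is not given in the sources used here.

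**Figure D2:**
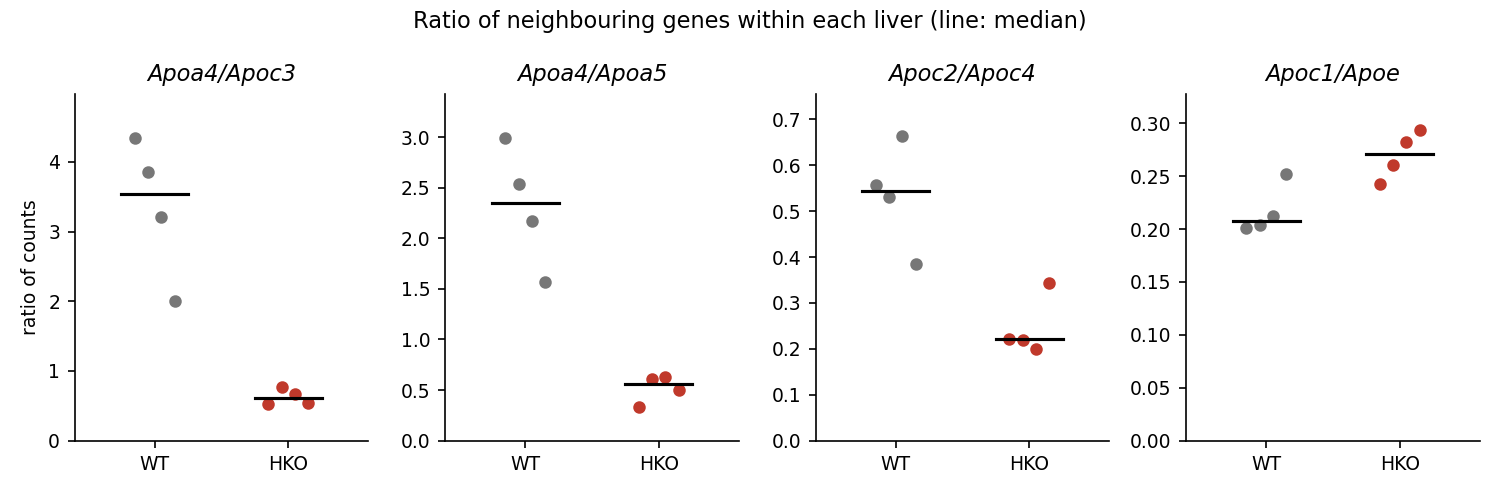
Ratio of the counts of neighbouring genes within each of the 4 WT livers (grey) and the 4 HKO livers (red), with the median as a line, on linear axes from 0. Apoa4 relative to Apoc3 had a median of 3.53 in WT and 0.607 in HKO livers, Apoc2 relative to Apoc4 had a median of 0.543 in WT and 0.221 in HKO livers, and Apoc1 relative to Apoe overlapped between the genotypes.

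Apoc2, the cofactor of lipoprotein lipase, was the other gene that fell. Its level was 136 CPM, 149 CPM, 131.5 CPM and 119 CPM in WT replicates 1 to 4, and 57.4 CPM, 81.8 CPM, 60.6 CPM and 92.5 CPM in HKO replicates 1 to 4. The groups did not overlap, and the highest HKO liver, replicate 4, lay closest to the WT range. The means were 134 ± 12.3 CPM in WT livers and 73.1 ± 16.9 CPM in HKO livers (SD, n = 4 each), a level 1.83-fold lower in HKO livers. The fit gave a log2 fold change of -0.87 ± 0.15 (SE), with a 95% interval from -1.20 to -0.54 and an adjusted p of 0.0101 by edgeR's test. Apoc2 was called in 8 of 8 fits with a liver left out, with log2 fold changes from -1.01 to -0.77 and the highest adjusted p at 0.043. Without HKO replicate 3 the log2 fold change was -0.79 (edgeR's adjusted p = 0.0212).

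Only 142 bases separate Apoc2 from Apoc4, a minor apolipoprotein of VLDL, and Apoc4 was not called. Apoc4 was at 244 CPM, 281 CPM, 198 CPM and 309.6 CPM in WT replicates 1 to 4. In HKO replicates 1 to 4 it was at 258 CPM, 372 CPM, 303 CPM and 269 CPM. These groups overlapped, with a log2 fold change of 0.22 ± 0.15 (SE), a 95% interval from -0.12 to 0.55 and an adjusted p of 0.474 by edgeR's test. The ratio of Apoc2 counts to Apoc4 counts was 0.557, 0.530, 0.664 and 0.385 in WT replicates 1 to 4. It was 0.222, 0.220, 0.200 and 0.344 in HKO replicates 1 to 4, so that each HKO liver was below the lowest WT liver. Against Apoc3 on chromosome 9, Apoc2 had a ratio of counts between 0.197 and 0.278 in WT livers and between 0.105 and 0.162 in HKO livers. An annotated read-through gene, Gm44805, covers both Apoc2 and Apoc4 on the same strand, so the counting method could split their reads. It received between 17.9 and 81.5 counts in WT livers and between 6.09 and 34.5 in HKO livers, while Apoc2 had between 1643 and 2644 counts in WT livers and between 851 and 1087 in HKO livers. The counts of Apoc2, Apoc4, Apoc1, Apoc3, Apoa5 and Mttp were fractional in all 8 livers, as this method gives where reads are shared between features, whereas those of Apoa4, Apob, Apoe and Tm6sf2 were whole within 1e-06 of a count.

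The other 2 genes of the chromosome 7 cluster kept overlapping levels. Apoe, the ligand for remnant uptake, was at 10154 CPM, 11673 CPM, 9191 CPM and 11307 CPM in WT replicates 1 to 4 and at 9568 CPM, 10687 CPM, 8697 CPM and 10053 CPM in HKO replicates 1 to 4. Its log2 fold change was -0.12 ± 0.12 (SE), with a 95% interval from -0.38 to 0.14 and an adjusted p of 0.649 by edgeR's test. Apoc1, an inhibitor of lipid transfer and of receptor uptake, was at 2043 CPM, 2377 CPM, 1948 CPM and 2854 CPM in WT replicates 1 to 4 and at 2323 CPM, 2785 CPM, 2452 CPM and 2952 CPM in HKO replicates 1 to 4. Its log2 fold change was 0.19 ± 0.13 (SE), with a 95% interval from -0.10 to 0.48 and an adjusted p of 0.484 by edgeR's test. The ratio of Apoc1 counts to Apoe counts lay between 0.201 and 0.252 in WT livers and between 0.243 and 0.294 in HKO livers, with only WT replicate 4 inside the HKO range. Macrophages also make Apoe, Apoc1, Apoc2 and Apoc4. Of 11 macrophage and Kupffer cell markers 0 were called by edgeR's test, 0 at an unadjusted p under 0.05 and 0 by DESeq2, and their summed level lay between 119 and 288 CPM in WT livers and between 85.5 and 273 CPM in HKO livers.

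The 3 genes of the assembly step were not called. Apob was at 11404 CPM, 12101 CPM, 14442 CPM and 11295 CPM in WT replicates 1 to 4. In HKO replicates 1 to 4 it was at 13128 CPM, 10068 CPM, 11722 CPM and 10714 CPM. WT replicate 3 and HKO replicate 1 were the highest livers of their genotypes. The log2 fold change of Apob was -0.11 ± 0.13 (SE), with a 95% interval from -0.39 to 0.17 and an adjusted p of 0.70 by edgeR's test. Apob took between 1.01% and 1.59% of all counts of a liver.

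Mttp was at 640 CPM, 572 CPM, 563 CPM and 576 CPM in WT replicates 1 to 4 and at 584 CPM, 481 CPM, 515 CPM and 506 CPM in HKO replicates 1 to 4. HKO replicates 2, 3 and 4 were below every WT liver, and HKO replicate 1 lay within the WT range. The means were 588 ± 35.4 CPM in WT livers and 521 ± 43.9 CPM in HKO livers (SD, n = 4 each). The log2 fold change of Mttp was -0.17 ± 0.09 (SE), with a 95% interval from -0.36 to 0.02 and an adjusted p of 0.303 by edgeR's test. The ratio of Mttp counts to Apob counts lay between 0.0390 and 0.0562 in WT livers and between 0.0439 and 0.0478 in HKO livers, which is inside the WT range. Tm6sf2 was at 9.09 CPM, 10.5 CPM, 11.7 CPM and 9.40 CPM in WT replicates 1 to 4. In HKO replicates 1 to 4 it was at 9.72 CPM, 12.0 CPM, 3.89 CPM and 12.0 CPM. HKO replicate 3, the library that stood apart, was the low one. The log2 fold change of Tm6sf2 was -0.12 ± 0.31 (SE), with a 95% interval from -0.81 to 0.57 and an adjusted p of 0.88 by edgeR's test. Without HKO replicate 3 it was 0.14, so the sign of this value rests on 1 liver.

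**Figure D3:**
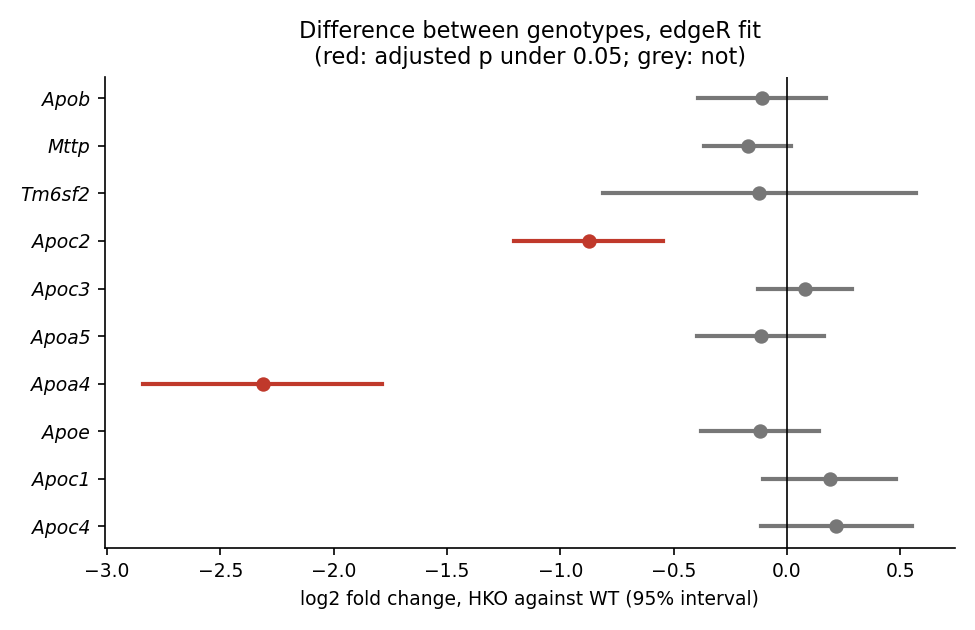
Fitted log2 fold change of each of the 10 genes between HKO and WT livers (point) with its 95% interval (line), red where the adjusted p was under 0.05. The intervals of Apoa4 (-2.84 to -1.78) and Apoc2 (-1.20 to -0.54) lie below 0 and those of the other 8 genes include 0.

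On a scale corrected for length, CPM per kb of the longest annotated protein-coding transcript, Apoe had the highest level of the 10 genes in WT livers, 7515 ± 803 CPM per kb (SD, n = 4). Apoc1 followed at 4334 ± 770 CPM per kb, with no overlap with Apoe. Apoa4 took place 3 in WT livers at 976 ± 270 CPM per kb, in a range that overlapped those of Apob (883 ± 105 CPM per kb) and Apoc3 (755 ± 77.5 CPM per kb). Apoc4 (480 ± 89.9 CPM per kb), Apoa5 (304 ± 21.2 CPM per kb), Apoc2 (184 ± 16.9 CPM per kb), Mttp (148 ± 8.94 CPM per kb) and Tm6sf2 (7.03 ± 0.81 CPM per kb) came next in that order, with no overlap between neighbours. In HKO livers Apoa4 took place 7 at 197 ± 46.1 CPM per kb, in a range that overlapped that of Apoa5 (280.3 ± 54.2 CPM per kb) and not those of Apob (819 ± 95.7 CPM per kb) or Apoc3 (798 ± 55.5 CPM per kb). Apoc2 fell from place 8 to place 9, at 101 ± 23.2 CPM per kb, in a range that overlapped that of Mttp (132 ± 11.1 CPM per kb). The order of Apoe, Apoc1, Apob, Apoc3, Apoc4, Apoa5 and Tm6sf2 among themselves was the same in both genotypes. The lengths behind this scale ran from 532 bases for Apoc1 to 13934 bases for Apob, and a liver that uses a shorter transcript would have a higher value.

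Livers of 1 genotype also differed among themselves in a way that followed transcript length. As a description chosen after the values were seen, a length index was computed for each liver as the mean log2 deviation from the genotype mean of 1572 genes with transcripts of at least 6000 bases, minus that of 530 genes with transcripts of at most 1000 bases. The index was -0.04, -0.08, 0.34 and -0.22 in WT replicates 1 to 4 and 0.27, -0.10, -0.13 and -0.05 in HKO replicates 1 to 4. WT replicate 3 and HKO replicate 1, the livers with the highest index, had the highest Apob of their genotype, at 0.24 and 0.21 above the genotype mean on the log2 scale. The other 6 livers lay between -0.17 and 0.05. Apob has the longest transcript of the 10 genes, and the deviations of the shortest members ran the other way. As a description over the 8 livers, the Pearson r of a gene's deviations with the index was 0.87 for Apob, -0.84 for Apoc4, -0.74 for Apoc1, -0.71 for Apoc3 and -0.56 for Apoe. It lay between -0.23 and 0.32 for Apoc2, Apoa4, Apoa5, Tm6sf2 and Mttp, of which Apoc2 also has a short transcript and Mttp the next longest after Apob. The part of transcript length in these values was not tested. Taken from the mean of all 8 livers, the index lay between -0.24 and 0.32 in WT livers and between -0.11 and 0.29 in HKO livers, and the genotypes overlapped. Between the genotypes the median log2 fold change was 0.04 for the long transcripts and -0.00 for the short ones.

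**Figure D4:**
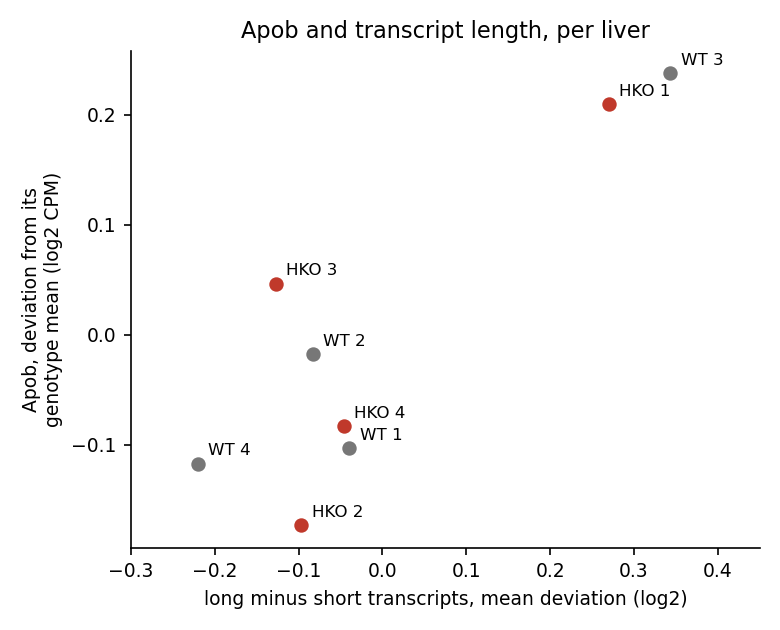
Deviation of Apob from its genotype mean (log2 CPM, vertical axis) against the length index, the mean deviation of long minus short transcripts (log2, horizontal axis), for the 4 WT livers (grey) and the 4 HKO livers (red). WT replicate 3 and HKO replicate 1 stand to the upper right, at indices of 0.34 and 0.27, and the other 6 livers are at or below -0.04 on the horizontal axis.

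The genes whose deviations from the genotype means over the 8 livers were most like those of Apob, out of 11878 tested genes with a mean of at least 1 CPM, were Ccnk, Dnajc13, Polr1a, Garre1 and Rfx7, with Pearson r between 0.98 and 0.99. Ccnk, the first of them, has a transcript of 2789 bases, Dnajc13, Polr1a and Rfx7 have transcripts of 8012, 9216 and 7988 bases, and no length was found for Garre1. None of these 5 was called by edgeR's test. Those most like Apoa4 were Decr2, Flad1, AW549542, Phb2 and Hspa14, with r between 0.95 and 0.98. Decr2, a peroxisomal dienoyl-CoA reductase, was lower in HKO livers, with a log2 fold change of -0.51 and an adjusted p of 0.00933 by edgeR's test, and the other 4 were not called. These are the highest of many coefficients over 8 livers that share their libraries and depth, so they are given as a description. Among the 45 pairs of the 10 genes the median r was 0.13, and the 3 pairs over 0.8 joined Apoc3 with Apoe, Apoc1 and Apoc4. Apoa4 and Apoc2, the pair lower in HKO livers, had an r of 0.42.

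Around these genes, the listed partners of VLDL assembly and secretion showed 1 call by edgeR's test among 24 tested genes, with a median log2 fold change of -0.11, and DESeq2 called 3, with Lpcat3 and Tor1a also lower (both named after their values were seen). Of all genes that each tested, edgeR called 5.03% and DESeq2 8.2%. At an unadjusted p under 0.05 by edgeR's test, 2 of the 24 were higher and 6 lower. Of all genes tested, 9.08% were higher and 10.7% lower at that threshold. The gene called by edgeR was Ces1d, a triacylglycerol hydrolase of the endoplasmic reticulum whose activity supplies lipid to VLDL. Ces1d was at 691 CPM, 607 CPM, 486 CPM and 577 CPM in WT replicates 1 to 4 and at 354 CPM, 403 CPM, 280.2 CPM and 383 CPM in HKO replicates 1 to 4. The groups did not overlap, and the log2 fold change was -0.73 ± 0.13 (SE) with an adjusted p of 0.0101 by edgeR's test, called in 8 of 8 fits with a liver left out.

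Of the other apolipoproteins and the factors that edit Apob mRNA, 2 of 15 tested genes were higher and 0 were lower by edgeR's test. That test called 1.66% of all genes tested higher and 3.37% lower. The median log2 fold change of this list was 0.15. At an unadjusted p under 0.05, 5 were higher and 1 was lower. Of all genes tested, 9.08% were higher and 10.7% lower at that threshold. By DESeq2 3 were higher and 0 lower, Clu being the added one, named after its value was seen. Apom, an apolipoprotein of HDL that carries sphingosine-1-phosphate, was at 74.6 CPM, 50.2 CPM, 66.7 CPM and 55.4 CPM in WT replicates 1 to 4 and at 95.9 CPM, 90.9 CPM, 109 CPM and 150 CPM in HKO replicates 1 to 4. Its log2 fold change was 0.85 ± 0.18 (SE) with an adjusted p of 0.0263 by edgeR's test, and the call was lost without HKO replicate 3 and without WT replicate 2, 3 or 4 (adjusted p from 0.0576 to 0.0812 by edgeR's test). Apol9b rose from 75.4 ± 13.6 CPM to 111 ± 13.1 CPM (SD, n = 4 each), with an adjusted p of 0.0343 by edgeR's test, but it has a near-identical copy, Apol9a, between which reads could be split. The call of Apol9b was lost without HKO replicate 2 or 4 and without WT replicate 1 or 2 (adjusted p from 0.0693 to 0.116 by edgeR's test), and under scaling by total count (0.0919). Apobec1, the enzyme that edits Apob mRNA so that the shorter APOB48 is made, had 12.4 ± 0.98 CPM in WT livers and 11.5 ± 2.51 CPM in HKO livers (log2 fold change -0.11, adjusted p = 0.774 by edgeR's test).

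Of the genes for uptake and lipolysis of APOB particles reported here, 0 of 17 tested genes were higher and 1 was lower by edgeR's test. That test called 1.66% of all genes tested higher and 3.37% lower. The median log2 fold change of this list was 0.13. At an unadjusted p under 0.05, 4 were higher and 1 was lower, against 9.08% higher and 10.7% lower of all genes tested. DESeq2 called 3 higher (Lipc, Angptl8 and Scarb1, named after their values were seen) and 1 lower. Lipg, endothelial lipase, fell from 20.4 ± 5.15 CPM to 10.1 ± 2.72 CPM (SD, n = 4 each), with an adjusted p of 0.0319 by edgeR's test. The call of Lipg held without HKO replicate 1 and without WT replicate 4, and was lost in the other 6 fits with a liver left out (adjusted p from 0.0552 to 0.0871).

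Of the transcriptional regulators of apolipoprotein genes, 3 of 31 tested genes were higher and 1 was lower by edgeR's test as by DESeq2. The edgeR test called 1.66% of all genes tested higher and 3.37% lower. The median log2 fold change of this list was 0.09. At an unadjusted p under 0.05 there were 6 higher and 3 lower, against 9.08% higher and 10.7% lower of all genes tested. Foxa3, a forkhead factor of hepatocytes, was at 16.5 CPM, 17.9 CPM, 14.6 CPM and 20.4 CPM in WT replicates 1 to 4 and at 42.8 CPM, 31.0 CPM, 41.8 CPM and 27.8 CPM in HKO replicates 1 to 4. Its log2 fold change was 1.05 ± 0.16 (SE) with an adjusted p of 0.00433 by edgeR's test, called in 8 of 8 fits with a liver left out. Hnf4a, the nuclear receptor that drives many of the 10 genes, rose from 446 ± 16.8 CPM to 572 ± 56.7 CPM, and Nr5a2 rose from 72.8 ± 4.72 CPM to 94.1 ± 9.51 CPM (SD, n = 4 each). Ppara, the fatty acid receptor known to raise Apoa5 and Apoa4 and to lower Apoc3, fell from 671 ± 9.53 CPM to 536 ± 35.1 CPM. Their adjusted p by edgeR's test was 0.0406 for Hnf4a, 0.0368 for Nr5a2 and 0.0358 for Ppara. These 3 calls were close to the threshold. All 3 were lost with a block for replicate number. Those of Hnf4a and Nr5a2 were also lost under scaling by total count (adjusted p of 0.151 and 0.153 by edgeR's test). With a liver left out, Hnf4a stayed called without HKO replicate 3 (otherwise 0.0526 to 0.126), Nr5a2 without HKO replicate 3 and without WT replicate 3 (otherwise 0.0641 to 0.119), and Ppara without HKO replicate 1 (otherwise 0.0542 to 0.119). Creb3l3, an activator of Apoa4 and Apoc2 transcription in liver, had 166 ± 10.1 CPM in WT livers and 166 ± 8.13 CPM in HKO livers, with a log2 fold change of 0.00 and a 95% interval from -0.16 to 0.17. Foxo1, an activator of Mttp and Apoc3, had 73.4 ± 8.53 CPM in WT livers and 90.1 ± 14.5 CPM in HKO livers (log2 fold change 0.30, adjusted p = 0.20 by edgeR's test). The 4 lists held 24, 15, 17 and 31 tested genes, and in all of them together edgeR called 8 genes and DESeq2 14. Over all genes that each tested, the shares called were 5.03% and 8.2%. Of the 8, Ces1d and Foxa3 were called in all 8 edgeR fits with a liver left out.

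**Figure D5:**
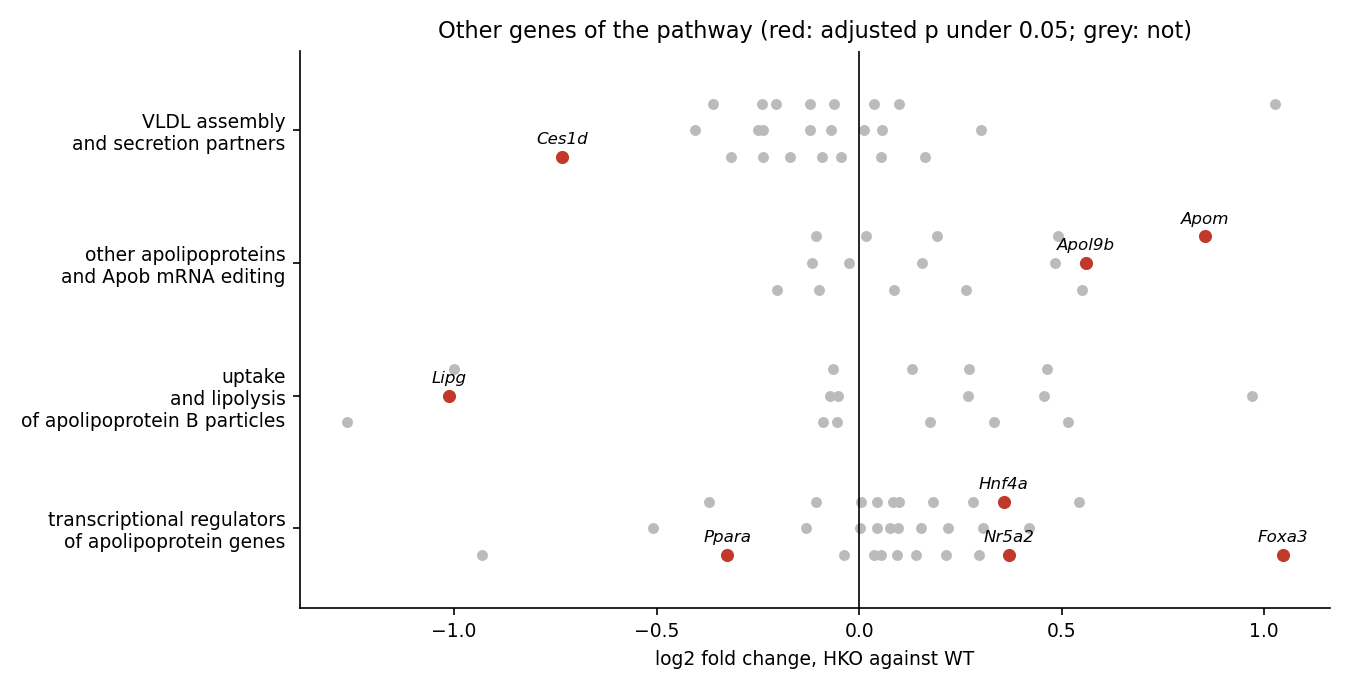
Log2 fold change between HKO and WT livers of the tested genes of the 4 lists (horizontal axis), 1 point per gene, red and named where edgeR's adjusted p was under 0.05 and grey otherwise, with vertical offsets only to separate points. The 8 called genes are Ces1d, Apom, Apol9b, Lipg, Hnf4a, Foxa3, Nr5a2 and Ppara, and the medians of the lists lie between -0.11 and 0.15.

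Markers of liver cell types were read beside these results. Of all genes tested, edgeR called 1.66% higher and 3.37% lower in HKO livers, and DESeq2 called 8.2% of those it tested. Of 8 hepatocyte markers, 5 (Serpina1a, Ahsg, Fgb, Tat and Cps1) were higher in HKO livers by edgeR's test and 0 were lower. The median log2 fold change of this list was 0.61, against 0.01 over all genes tested. The summed level of the 8 lay between 90925 and 124304 CPM in WT livers and between 82547 and 140468 CPM in HKO livers. Most of that sum was Alb, at 62295 to 96088 CPM in WT livers and 47064 to 98815 CPM in HKO livers. Of 7 stellate cell markers, 2 (Col1a1 and Col3a1) were lower, with sums of 371 to 530 CPM in WT livers and 301 to 414 CPM in HKO livers. None of 6 sinusoidal endothelial markers was called by edgeR (0 at an unadjusted p under 0.05) or by DESeq2, with sums of 59.2 to 192 CPM and 98.2 to 222 CPM. Of 5 cholangiocyte markers 3 were tested and 0 called by edgeR (0 at an unadjusted p under 0.05) or by DESeq2, with sums of 40.6 to 50.8 CPM and 30.8 to 107.8 CPM, and the highest sum was that of HKO replicate 2. The lymphocyte markers summed to 0.909 to 3.83 CPM in WT and 3.94 to 5.40 CPM in HKO livers. Of 7 lymphocyte markers Cd4 alone was tested, and it lay between 0.140 and 1.12 CPM in WT livers and between 0.936 and 2.99 CPM in HKO livers. Cd4 was not called by edgeR's adjusted p, but its unadjusted p was under 0.05 and DESeq2 called it higher. Of 6 pancreatic acinar markers Cela1 alone was tested, and it was higher in HKO livers, while each of the others had at most 5 counts in a liver. Enterocytes make Apoa4 and Apob at high levels, and Vil1, a marker of their brush border, was at 0 to 0.0827 CPM in WT livers. In HKO livers Vil1 was at 0 to 0.135 CPM except in HKO replicate 2, which had 1.39 CPM, or 18 counts. That liver was also the one with the highest sum of cholangiocyte markers. The part of these cell types in the levels of the 10 genes was not tested.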

How the data were processed

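RNA was sequenced from whole liver in 8 libraries, each treated as 1 liver, and the authors deposited expected counts per gene (estimated counts that need not be whole) that Partek's expectation-maximization method assigned without normalization. The submitters' processing notes name STAR and Partek, whose versions are not given in the sources used here. The labels name rRNA depletion and also a small RNA kit, so the kind of library is uncertain. Of the deposited values, 80.6% were whole within 1e-06 of a count and 87.7% within 0.01, every column could be matched to a liver, and all counts were rounded before testing. Positions are those deposited for GRCm38, where the listed end lies 1 base past the RefSeq end for most genes, so 1 was subtracted.

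Counts were tested in edgeR 4.0.16 (R 4.3.3) between the 4 WT and 4 HKO livers, with TMM scaling, the default expression filter (minimum count 10), robust dispersions and the quasi-likelihood test, adjusted by Benjamini-Hochberg. An SE is the log2 fold change over the root of F. Log2 CPM used a prior count of 2, and CPM per kb used the longest protein-coding GENCODE M21 transcript. The alternatives tried were limma-voom (limma 3.58.1), DESeq2 1.42.0, the legacy quasi-likelihood method, RLE, upper quartile and total count scaling, no filter, at least 10 counts in every liver, a prior count of 0.5, a replicate block, a fold change over 1.5, and each liver left out. The models were tested on simulated data. Other steps used Python 3.11.15, pandas 2.3.3 and matplotlib 3.10.9.

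The 10 genes, the 4 pathway lists and the marker lists were chosen with earlier results of these data known. Named are all 10 genes, each list gene with an adjusted p under 0.05, Hnf4a, Creb3l3, Foxo1, Ppara and Apobec1 whatever their result, and the 5 genes most like Apoa4 and Apob. List genes called by DESeq2 and not by edgeR were also named, after their values were seen. Hepatocyte, macrophage, stellate, sinusoidal endothelial, cholangiocyte, enterocyte, pancreatic acinar and lymphocyte markers were listed. Of the enterocyte markers, Cdh17, Lct, Sis, Alpi and Rbp2 were not analysed here, and neither was Apoc2l among the apolipoproteins. A listed gene is not reported here. Replicate libraries were compared with each other, and none differed by as little as sampling noise.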

Additional observations from a re-analysis of the deposited data

Results flagged for a closer look

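Mttp stood out in 1 liver of its genotype. WT replicate 1 had 640.363 CPM, while the other 3 WT livers lay between 562.82 and 575.936 CPM, and the gap to the nearest of them was 0.831 of the range of the 4 livers, just above the limit that Dixon's test sets for groups of this size. In all, 20 groups of 4 livers were looked at (10 genes in 2 genotypes), and chance alone would be expected to single out about 1 of them.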

How the results depend on the processing

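Apoa4 and Apoc2 were called, and no other of the 10 genes was, under each alternative: 2 of 10 in 18 of 18 settings, Apoa4 with log2 fold changes from -2.48 to -2.17 and Apoc2 from -1.01 to -0.77. Over all genes, 624 were called by edgeR, 1014 by DESeq2 and 367 with a fold change over 1.5 required, and leaving out each liver gave 212 to 598, with 212 without WT replicate 2, 272 without WT replicate 1 and 364 without HKO replicate 4. Values near 0 changed sign. Apoc3 was at -0.0016 under total count scaling, which moved the median of all genes to -0.08 from 0.01. Creb3l3 was at -0.088 under that scaling, at -0.0027 with at least 10 counts in every liver, and between -0.031 and 0.040 with a liver left out. Tm6sf2 lay between -0.26 and 0.14 with a liver left out, the latter without HKO replicate 3, and Apobec1 between -0.19 and 0.024. With the replicate block 456 genes were called, 2 of the 10 among them, and the calls of Hnf4a (adjusted p = 0.104 by edgeR's test), Nr5a2 (0.111) and Ppara (0.0829) were lost. The labels state no pairing, and same-numbered livers deviated with r of -0.07, 0.01, -0.08 and -0.15, so they do not pair the livers. Under total count scaling the calls of Hnf4a (0.151), Nr5a2 (0.153) and Apol9b (0.0919) were lost. The cause was not tested for any of these changes. Of the 10 genes, Tm6sf2 had the fewest counts and the widest interval, so a difference in it was the least detectable here. Its coefficient of variation was 11.6% in WT and 40.8% in HKO livers. The part of depth in that interval was not tested.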
